A study of Mus musculus with 4 samples.

Results

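Endothelial barcodes without capillary genes were chosen in 4 single-cell RNA libraries of mouse aorta. A barcode was kept when it held at least 1000 unique molecular identifiers (UMIs, each standing for 1 captured RNA molecule) and at most 10% mitochondrial UMIs. It then needed at least 3 summed UMIs of Pecam1, Cdh5, Egfl7 and Tie1 with at least 2 of these 4 genes seen, at most 2 UMIs of the capillary genes Cd36, Rgcc and Gpihbp1, and at most 2 UMIs of the macrophage genes C1qa, C1qb and C1qc. By this rule 515 of 37865 filtered barcodes were members, and they are called non-capillary endothelial barcodes here. Members were chosen by their UMIs of these 10 genes, so the levels of those genes describe the choice and support nothing else.

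Aortas came from WT mice and LysM-DKO mice fed a normal diet, and from WT/ApoE-/- mice and LysM-DKO/ApoE-/- mice fed a western diet, and 4 values are given in this order throughout. Each group was 1 library. The labels used here give neither the age nor the sex of the mice, nor how many aortas a library holds. The series title names epsins, adaptor proteins of endocytosis, and the labels do not spell out the 2 deleted genes of LysM-DKO. LysM is the promoter name commonly used for Cre expression in myeloid cells, so endothelial cells are not the cells this deletion is aimed at. ApoE-/- was carried by both western diet groups and by neither normal diet group, so diet and the loss of ApoE cannot be told apart. Xist, which is transcribed from the inactive X chromosome of females, gave 608, 1165, 0 and 0 UMIs in the members, and the Y-linked gene Ddx3y gave 0, 0, 27 and 31. Read by these genes, members were female on normal diet and male on western diet. Sex therefore cannot be told apart from diet and the loss of ApoE either.

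The luminal endothelium of the aorta is a single cell layer that lines a large artery and senses the flow of blood. It carries gap junctions built from connexins, makes nitric oxide and endothelin to set the tone of the wall, and displays adhesion molecules that capture leukocytes where atherosclerosis develops. The outer wall and the tissue around it also hold capillaries, which take up fatty acids through CD36 and carry GPIHBP1. They also hold lymphatic vessels, whose identity depends on the transcription factor PROX1.

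The 4 libraries held 7758, 8230, 13744 and 8133 filtered barcodes with medians of 4167, 3404, 2103 and 6761 UMIs. The members held 779911, 1176499, 281122 and 357690 UMIs in all, so a count of 0 UMIs allows up to 3.85, 2.55, 10.7 and 8.39 CPM (counts of a gene per 1000000 UMIs of the members of 1 library). Between pairs of libraries 38 to 129 barcode sequences were shared, none of them by members of both libraries. Doublets were kept, as the rule has no doublet step; 17.0, 8.30, 5.88 and 0% of members were among the highest doublet scores, beside 9.77, 9.37, 12.4 and 8.96% of filtered barcodes. Apoe, the deleted gene of the western diet groups, gave 1851, 1762, 0 and 6 UMIs in the members, which is the order the labels imply.

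Members of WT/ApoE-/- mice lay closest to the endothelial threshold. The median member held 11, 8, 6 and 19.5 UMIs of the 4 endothelial genes. Just inside the threshold, 12, 46, 17 and 2 members held exactly 3 such UMIs. Just outside, 38, 68, 28 and 9 barcodes held 2 UMIs from 2 genes, and 177, 166, 97 and 153 held at least 3 UMIs from a single gene. On the capillary side, 98, 193, 41 and 51 members had 0 capillary UMIs, and 9, 18, 0 and 4 endothelial barcodes were just outside with 3. Capillary UMIs reached 10 or more in 83, 131, 12 and 8 endothelial barcodes. The capillary-like barcodes, those past 2 capillary UMIs, numbered 149, 217, 23 and 18.

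The endothelial name was checked against Vwf, which encodes von Willebrand factor and which the rule did not use. Vwf gave 185, 282, 82 and 72 UMIs in the members. Its level was 237, 240, 292 and 201 CPM, against 1.52, 2.43, 0.963 and 0.319 CPM in barcodes outside the endothelial rule. All 4 libraries were thus high in the members and near 0 elsewhere. Of the rule's own genes, Pecam1, an adhesion molecule of endothelial junctions, stood at 1755, 1678, 1821 and 3450 CPM and Cdh5, the junctional cadherin, at 421, 486, 423 and 570 CPM. Pecam1 lies on chromosome 11 from 106654217 to 106750628 (minus strand) and Vwf on chromosome 6 from 125546774 to 125686679 (plus strand), both protein-coding, on mm10 with GENCODE M21.

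RNA of other cells was present in the members. After thinning each barcode to 1000 UMIs, a Vwf UMI was seen in 21.3, 17.0, 17.6 and 19.0% of members and in 0.141, 0.314, 0 and 0% of lymphoid barcodes, which should lack it (709, 955, 290 and 19 barcodes; median 3595, 3954, 2154.5 and 3169 UMIs, against 4718, 3286, 5145 and 4774 in members). Without thinning, the Vwf shares ranged from 35.1 to 51.8% of members. At least 3 UMIs of the smooth muscle genes Myh11 and Cnn1 were held by 64.5, 57.7, 72.5 and 56.9% of members, and by 61.2, 68.3, 15.9 and 42.1% of lymphoid barcodes. The 10 smooth muscle markers, all seen in every library, summed to 10706, 9274, 15911 and 9385 CPM in members, which is 38.9, 42.1, 54.2 and 23.0% of their level in the other barcodes. The 10 fibroblast markers summed to 1612, 1741, 8562 and 1859 CPM, or 35.9, 31.9, 101 and 51.5% of the other barcodes, with all 10 seen in 3 libraries and 9 in LysM-DKO/ApoE-/- on western diet. The members of WT/ApoE-/- on western diet therefore held fibroblast RNA at the level of the whole library, with Lum at 1832 CPM and Dcn at 3635 CPM. In all, 109, 186, 42 and 42 members (77.3, 70.2, 82.4 and 72.4%) had 3 or more UMIs of 8 smooth muscle, fibroblast and immune genes. The 10 macrophage markers summed to only 41.0, 51.8, 46.2 and 11.2 CPM, with 6, 9, 6 and 3 of them seen. Of the 6 platelet markers 3, 6, 0 and 1 were seen, of the 6 Schwann cell markers 3, 6, 2 and 3, of the 5 adipocyte markers 1, 3, 0 and 0, and of the 6 mesothelial markers 1, 4, 0 and 0. The 8 pericyte markers stood at 49.7, 40.5, 77.9 and 16.3% of their level in the other barcodes.

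The share of these barcodes was highest in the normal diet libraries. They made up 1.82% (95% exact binomial interval 1.53 to 2.14), 3.22% (2.85 to 3.62), 0.371% (0.276 to 0.488) and 0.713% (0.542 to 0.921) of filtered barcodes. With each barcode thinned to 1000 UMIs before the rule, the shares were 1.13, 1.64, 0.146 and 0.504%. The order of the 4 libraries was the same at both depths. LysM-DKO minus WT came to 1.40 percentage points (0.919 to 1.89) for the normal diet and 0.342 (0.143 to 0.568) for the western diet. Western minus normal diet came to -1.45 points (-1.78 to -1.15) for WT mice and -2.51 (-2.94 to -2.09) for LysM-DKO mice. These intervals, like all others given here, cover counting error only. With 1 library a group, no difference between groups was tested. Among endothelial barcodes the members were 48.6, 54.5, 65.4 and 75.3%.

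**Figure D1:**
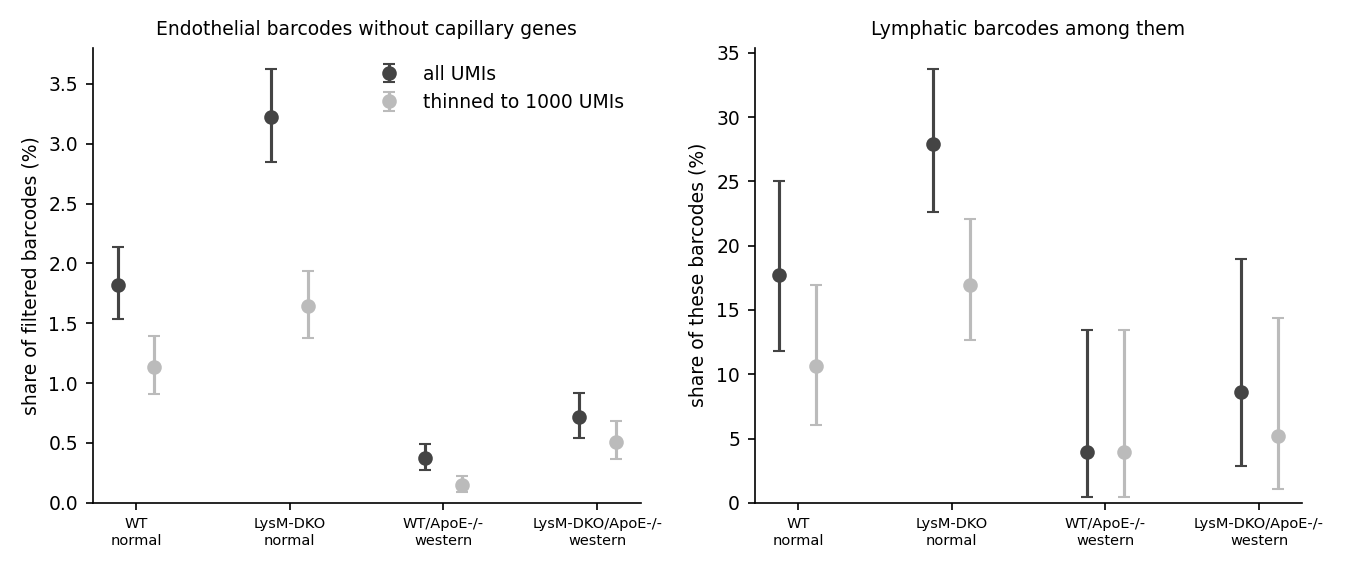
Share of filtered barcodes that were non-capillary endothelial (left) and share of these that met the lymphatic rule (right), in percent, for each of the 4 libraries. Points are shares and bars are 95% exact binomial intervals, for all UMIs (dark) and after thinning to 1000 UMIs (light); on the left the normal diet libraries lie at 1.82 and 3.22% and the western diet libraries at 0.371 and 0.713%.

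Against the capillary-like barcodes of the same library, the non-capillary barcodes were high in several genes of the arterial list. Cytl1, which encodes a secreted cytokine-like protein, stood at 3286, 2325, 1455 and 4853 CPM in members and at 33.1, 267, 65.8 and 153 CPM in capillary-like barcodes. Gja5, which encodes the arterial connexin 40, stood at 159, 139, 157 and 190 CPM, against 4.97, 15.1, 0 and 0 CPM. Bmx, a tyrosine kinase gene of arterial endothelium, stood at 200, 125, 67.6 and 151 CPM, against 8.28, 12.8, 0 and 0 CPM. The members were above the capillary-like barcodes in each of the 4 libraries for all 3 genes. The mean log2 ratio over libraries was 4.76 ± 1.44 (SD, n = 4) for Cytl1, 4.70 ± 1.13 for Gja5 and 4.26 ± 0.69 for Bmx, where the western diet ratios of Gja5 and Bmx stand against 0 UMIs and depend on the 0.5 UMIs added. The capillary genes of the rule split these 2 sets of barcodes, so the ratios describe the choice of members. An exact two-sided sign-flip permutation test over the 4 libraries cannot go below p = 0.125, which each of the 3 genes had, and adjusted by Benjamini-Hochberg over all 10990 genes that p was 0.525. No gene passed, and nothing is supported by this test.

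Among the 25 arterial genes, 12 were higher and 5 lower in members in 4 of 4 libraries. Of the 10 venous genes, 5 were higher and 2 lower, so the higher genes were not particular to the arterial list. Over all 10990 genes compared, 9.74% were higher and 14.0% were lower in 4 of 4, and the median of the mean log2 ratio was -0.07. Of the 249 list genes compared, 29 were higher in 4 of 4 and past 2-fold on average and 35 lower, beside 3.33 and 5.40% of all genes. The 12 also included Gja4, the connexin 37 gene, with a mean log2 ratio of 2.26 ± 0.84 (SD, n = 4). Edn1, the endothelin-1 gene (2.84 ± 1.27), Clu, the clusterin gene (2.47 ± 1.10), and Eln, the elastin gene (1.85 ± 1.01), were included too. After thinning, Eln was seen in 19.9, 23.4, 18.6 and 5.26% of lymphoid barcodes, against 33.3, 45.7, 60.8 and 58.6% of members. For Fbln5, another of the 12, these shares were 14.2, 16.2, 7.93 and 5.26%, against 26.2, 37.7, 43.1 and 41.4%. The part of RNA of other cells in the ratios of Eln and Fbln5 was not tested. The 5 lower genes were Dll4 and Jag2, which encode Notch ligands, Notch4, the co-receptor gene Nrp1, and the chemokine gene Cxcl12. The arterial list was thus split, with both connexins among the higher genes and Dll4 and Jag2 among the lower ones. Another Notch ligand gene of the list, Jag1, was higher in 3 of 4 libraries, with a mean log2 ratio of 0.79 ± 0.84. Of the Notch targets, Hey2 was among the higher genes, while Hey1 was higher in 1 of 4 libraries, with a mean of -0.97 ± 1.18. The Notch genes therefore did not go one way. Cxcl12 is also on the capillary list.

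Several adhesion genes were also higher, and of these Vcam1, Selp and Icam1 are on the venous list as well. Of 16 adhesion and chemokine genes, 9 were higher in members in 4 of 4 libraries and 1, Cxcl12, was lower. Over all genes the shares were 9.74% higher and 14.0% lower. Vcam1, the leukocyte adhesion receptor VCAM-1, stood at 1066, 1222, 1387 and 1501 CPM in members and 114, 126, 872 and 82.6 CPM in capillary-like barcodes, a mean log2 ratio of 2.81 ± 1.48 (SD, n = 4). In WT/ApoE-/- on western diet Vcam1 was also at 1156 CPM in all non-endothelial barcodes, so there the members were barely above the rest of the library. Selp, the P-selectin gene, stood at 294, 167, 224 and 296 CPM, against 19.9, 122, 49.3 and 11.8 CPM. Icam1 and Sele, the genes of 2 further adhesion receptors, were also higher in 4 of 4.

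Genes of flow sensing and of BMP signalling were higher in part. Bmp4, which encodes a secreted bone morphogenetic protein, stood at 185, 127, 142 and 282 CPM, against 21.5, 11.6, 5.48 and 23.6 CPM, a mean log2 ratio of 3.46 ± 0.47 (SD, n = 4). Of the 16 BMP and TGF-beta genes 6 were higher and 2 lower in 4 of 4, and of the 14 flow genes 5 were higher and 1 lower. Both counts stand beside 9.74% higher and 14.0% lower over all genes. Nos3, the nitric oxide synthase gene, had a mean log2 ratio of 0.98 ± 0.36. The flow-induced transcription factor genes Klf2 and Klf4 had means of 0.08 ± 0.43 and 0.06 ± 0.09 and were higher in 2 of 4 libraries each.

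Genes of capillaries that the rule did not use were low in the members. Of 18 such genes 16 were lower in 4 of 4 libraries and none was higher, beside 14.0% lower and 9.74% higher over all genes. Fabp4, which encodes a fatty acid carrier, stood at 1292, 1556, 594 and 526 CPM in members and 15232, 22413, 6333 and 27554 CPM in capillary-like barcodes, a mean log2 ratio of -4.13 ± 1.07 (SD, n = 4). Kdr and Flt1, the genes of VEGF receptors, had means of -2.58 ± 0.90 and -1.65 ± 0.50. Car4, the carbonic anhydrase gene, had a mean of -5.45 ± 0.50. The 2 sets were split by capillary genes, so these lower levels describe the choice of members.

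**Figure D2:**
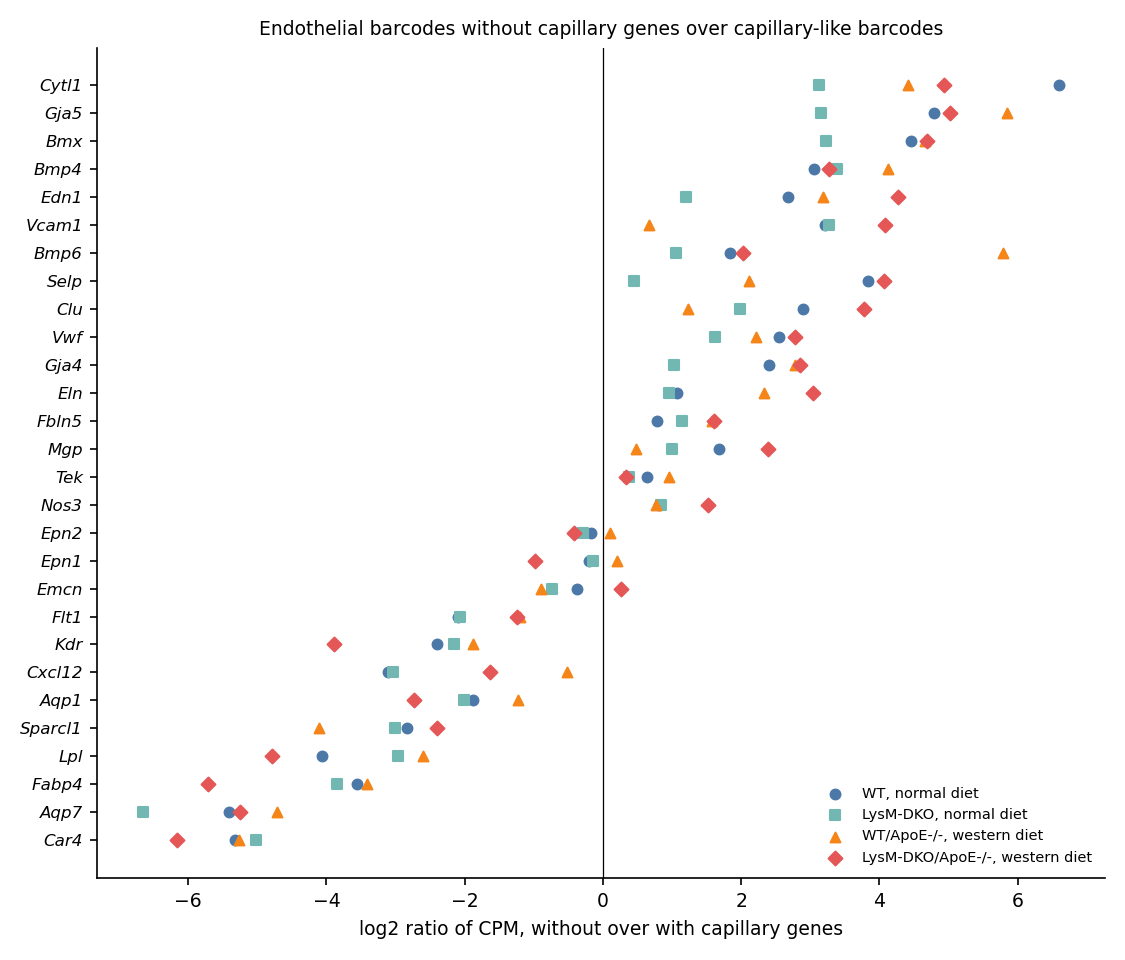
log2 ratio of CPM in non-capillary over capillary-like endothelial barcodes (horizontal) for named genes of the lists (vertical), 1 symbol per library. Cytl1, Gja5, Bmx, Vcam1 and Selp lie right of 0 in all 4 libraries, with Cytl1 at a mean of 4.76, and Fabp4, Kdr and Car4 lie left, with Car4 at a mean of -5.45.

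The members were not of one kind, because lymphatic barcodes met the same rule. A member was counted as lymphatic with at least 2 UMIs from at least 2 of Prox1, Mmrn1 and Ccl21a. By this count 25, 74, 2 and 5 members were lymphatic, or 17.7% (11.8 to 25.1), 27.9% (22.6 to 33.7), 3.92% (0.478 to 13.5) and 8.62% (2.86 to 19.0). After thinning to 1000 UMIs they were 10.6, 17.0, 3.92 and 5.17%. Both normal diet libraries were above both western diet libraries, but the interval of WT on normal diet overlapped those of both western diet libraries. Capillary-like barcodes held 6, 10, 2 and 6 lymphatic barcodes by the same count, or 4.03, 4.61, 8.70 and 33.3% of them.

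On normal diet the lymphatic members carried genes that the count did not use. Nts, which encodes neurotensin, stood at 2895 and 2183 CPM in lymphatic members and 33.3 and 263 CPM in the other members of WT and LysM-DKO. Lyve1, the hyaluronan receptor gene of lymphatic endothelium, stood at 527 and 953 CPM, against 65.1 and 44.2 CPM. Flt4, the receptor gene for VEGF-C, stood at 326 and 397 CPM, against 21.2 and 30.3 CPM. Arterial genes showed the opposite order: Cytl1 stood at 50.2 and 44.2 CPM in lymphatic members and 3872 and 3166 CPM in the others, and Gja5 had 0 UMIs in the lymphatic members of both libraries. Vwf was also lower in lymphatic members, at 58.6 and 63.1 CPM against 270 and 305 CPM. Gdf15, the gene of a stress-induced cytokine, stood at 3070 and 3205 CPM in lymphatic members and 268 and 723 CPM in the others.

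**Figure D3:**
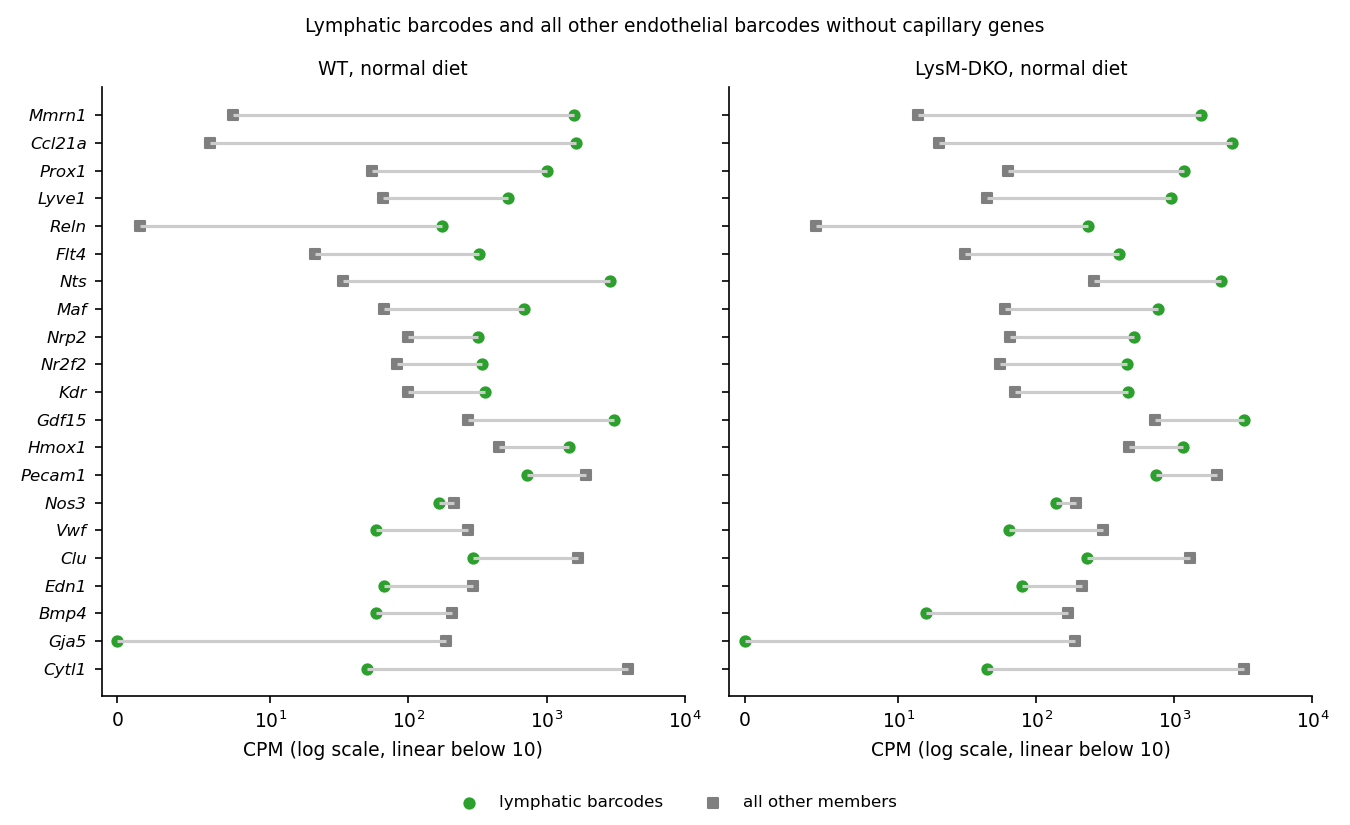
CPM (log scale, linear below 10) of 21 genes in lymphatic members (green circles) and in all other members (grey squares) of the WT and LysM-DKO libraries on normal diet. Nts lies at 2895 and 2183 CPM in lymphatic members, while Cytl1 lies at 3872 and 3166 CPM in the others.

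The 3 genes that define the lymphatic count are given as levels of all members. Prox1 gave 157, 426, 10 and 10 UMIs, or 201, 362, 35.6 and 28.0 CPM. Mmrn1, which encodes a multimerin, gave 249, 433, 146 and 120 CPM, and 95.1% of its UMIs in WT/ApoE-/- on western diet came from 1 barcode. Ccl21a, the chemokine gene that guides cells into lymphatics, gave 254, 721, 509 and 126 CPM, with 96.5% from 1 barcode in WT/ApoE-/- on western diet. Its symbol sums 2 features with near-identical copies nearby, so its level is uncertain. In LysM-DKO over WT on normal diet, 4 of 12 lymphatic genes tested were past 2-fold higher and none lower, with a list median of 0.83, beside 3.42% higher, 1.93% lower and 5.36% either way over the 8589 genes tested and an all-gene median of -0.02. In western over normal diet in LysM-DKO, 12 of 12 were past 2-fold lower, with a median of -2.32, beside 7.26% higher, 8.47% lower and 15.7% either of 7866 genes and an all-gene median of 0.09. In WT the same list was mixed, with 1 of 12 past 2-fold higher and 3 lower and a median of -0.46, beside 7.14% higher and 8.45% lower of all genes. The 12 genes summed to 2067, 3784, 1458 and 699 CPM in members, but to 2167, 1080, 2435 and 7623 CPM in capillary-like barcodes. The order of the libraries thus differed between these 2 sets, and the part of the capillary limit in it was not tested.

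Several arterial genes were higher in LysM-DKO/ApoE-/- than in WT/ApoE-/- members. Past 2-fold in LysM-DKO over WT were 0 of 25 arterial genes for the normal diet, beside 5.36% of the 8589 genes tested. For the western diet 7 of 21 were higher and 0 lower, where 6.56% were higher, 5.63% lower and 12.2% either of 5013 genes tested. The list medians were 0.04 and 0.28, beside -0.02 and 0.05 over all genes, and the difference between diets was not tested. General endothelial genes had medians of -0.13 and 0.61, with 19 of 21 higher on western diet, beside 53.8% of all genes. The rule's 4 endothelial genes, whose levels describe the choice of members, summed to 2671 CPM in WT/ApoE-/- and 4621 CPM in LysM-DKO/ApoE-/- members. Their median log2 ratio was 0.63. The higher levels on western diet were thus not particular to the arterial list, and the part of the choice in them was not tested. Edn1 stood at 259, 178, 374 and 794 CPM, so LysM-DKO/ApoE-/- on western diet was the highest library. The genotype contrast of Edn1 gave log2 ratios of -0.54 (-0.83 to -0.26) for the normal diet and 1.08 (0.76 to 1.43) for the western diet. Bmx gave -0.68 (-1.01 to -0.34) and 1.14, the latter from 19 UMIs in WT/ApoE-/- on western diet. Cytl1 gave -0.50 (-0.58 to -0.42) and 1.74 (1.58 to 1.90). Cytl1 was thus lowest in WT/ApoE-/- members and highest in LysM-DKO/ApoE-/- members.

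The direction of some of these ratios turned with the members kept. Without the members that held 3 or more UMIs of the 8 genes of other cells, the western diet ratio turned to -1.04 for Edn1, -0.92 for Bmp4 (0.98 with all members) and -0.30 for Gja4 (0.82 with all members), and the normal diet ratio of Cytl1 to 0.0533. That leaves few members in WT/ApoE-/- on western diet, where 42 of 51 were set aside. Nos3 stood at 206, 179, 49.8 and 218 CPM, from 161, 211, 14 and 78 UMIs, so WT/ApoE-/- on western diet was the lowest library. The genotype ratio of Nos3 was 2.09 (1.30 to 3.07) with the western diet and -0.20 (-0.51 to 0.10) with the normal diet. The fibroblast list had a median of -2.11 in the same western diet contrast, with 6 of 9 genes past 2-fold lower, beside 5.63% of all genes. The part of fibroblast RNA in these ratios was not tested.

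**Figure D4:**
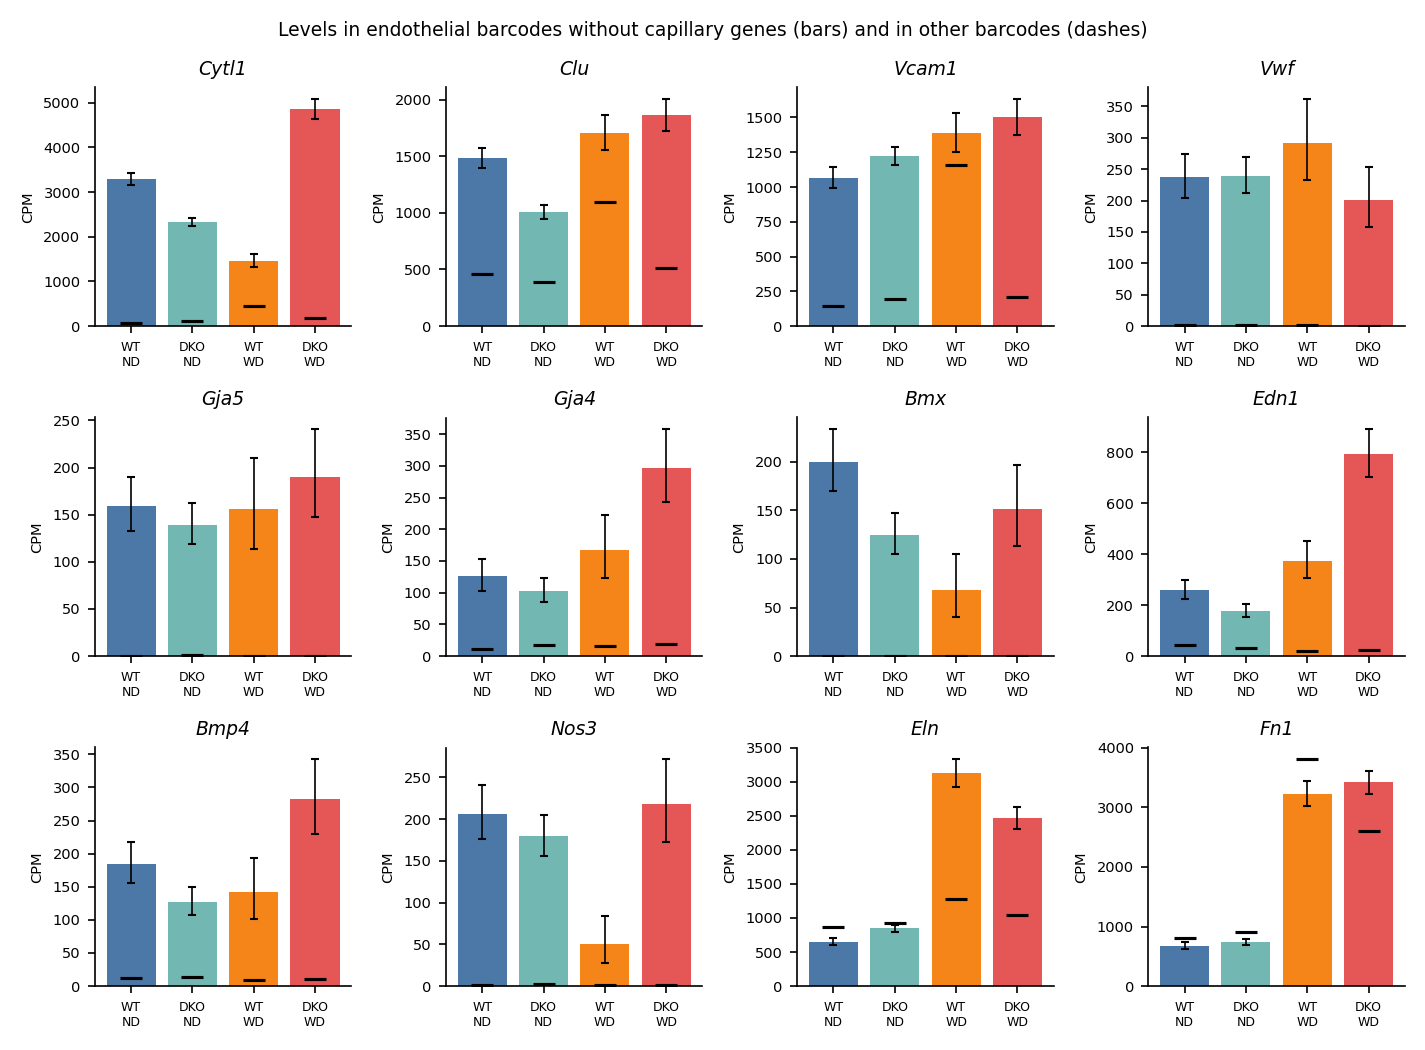
CPM of 12 genes in the members of each library (bars, with 95% exact Poisson intervals) and in barcodes outside the endothelial rule (dashes); ND is normal and WD western diet. Cytl1, Gja5, Bmx and Vwf lie above the dashes in each library, whereas Fn1 and Eln lie below them for the normal diet.

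Many matrix genes were higher on western diet in WT, and fewer in LysM-DKO. Of 20 basement membrane and elastic matrix genes, 8 of 19 tested were past 2-fold higher and none lower in western over normal diet in WT, with a median of 0.95, where 7.14% were higher, 8.45% lower and 15.6% either of 6615 genes and the all-gene median was 0.04. In LysM-DKO 4 of 20 were higher and 1 lower, with a median of 0.28, beside 7.26 and 8.47% of all genes and an all-gene median of 0.09. Fn1, the fibronectin gene, stood at 680, 737, 3226 and 3419 CPM, with log2 ratios of western over normal diet of 2.25 (2.09 to 2.40) for WT and 2.21 (2.09 to 2.34) for LysM-DKO mice. In non-endothelial barcodes Fn1 stood at 805, 914, 3814 and 2597 CPM, so it was higher there too. The 20 matrix genes summed to 14143.5, 16804.9, 29654.5 and 19972.7 CPM in non-endothelial barcodes, so their sum was higher on western diet there as well. Eln stood at 651, 848, 3123 and 2466 CPM, and 1 barcode held 48.6 and 31.1% of its UMIs in the western diet libraries. Col4a1, which encodes a basement membrane collagen, stood at 272, 337, 530 and 998 CPM. Of 19 mesenchymal transition genes, 8 of 16 tested were past 2-fold higher in WT and 4 of 16 in LysM-DKO, none lower in either, beside the same shares of all genes, with medians of 0.84 and 0.17; Col1a1 and Col3a1 are among the 8 and are also fibroblast genes. The 10 fibroblast markers had a median of 2.25 in WT, with 9 of 9 tested past 2-fold higher, and 0.35 in LysM-DKO, and their part in the matrix genes was not tested.

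Many early response genes were lower on western diet in WT. Of 17 dissociation and early response genes, which rise during tissue digestion, 10 were past 2-fold lower in western over normal diet in WT and 4 in LysM-DKO, none higher in either, beside 8.45 and 8.47% lower over all genes. The list medians were -1.04 and -0.60, beside all-gene medians of 0.04 and 0.09. Fos, an immediate early gene, stood at 3273, 2076, 1234 and 1582 CPM in members and 3649, 2252, 1678 and 2372 CPM in non-endothelial barcodes. Outside the endothelial barcodes the 17 genes summed to 19006, 14412, 11890 and 13960 CPM, and in members to 21241, 16434, 10579 and 10487 CPM.

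Among 19 genes of epsins and endocytosis, 16 were tested on normal diet and none was past 2-fold by genotype, beside 5.36% of all genes. On western diet 1 of 14 was higher, beside 6.56%, and none lower. Epn1 stood at 33.3, 39.9, 39.1 and 19.6 CPM, from 26, 47, 11 and 7 UMIs, and Epn2 at 104, 88.4, 107 and 117 CPM. Epn2 had genotype ratios of -0.23 (-0.67 to 0.20) with the normal diet and 0.13 (-0.57 to 0.86) with the western diet, so no difference was detectable at this depth. Epn1 and Epn2 in endothelial barcodes do not check a deletion driven in myeloid cells.

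Of 28 lipid handling genes, 2 of 24 tested were past 2-fold higher and 1 lower for genotype with the normal diet, beside 3.42 and 1.93% of all genes. With the western diet 2 of 11 were higher and 1 lower, beside 6.56 and 5.63%. For diet, 2 of 20 were higher and 6 lower in WT, beside 7.14 and 8.45%, and 1 of 22 was higher and 5 lower in LysM-DKO, beside 7.26 and 8.47%, with Apoe among the lower genes of both. The 4 medians, in that order, were 0.26, -0.03, -0.03 and -0.13. Abca1, the cholesterol exporter gene, stood at 106, 140, 192 and 179 CPM, and at 46.9, 54.9, 141 and 44.9 CPM in non-endothelial barcodes. Abcg1, the exporter gene that the series title names, gave only 10, 22, 9 and 9 UMIs, too few to rank the libraries. Abca1 was thus above the non-endothelial barcodes in each library. In capillary-like barcodes Abca1 stood at 131, 108, 345 and 189 CPM, and members were above these in 1 of 4 libraries.

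Endothelial genes of other lists varied by library. Of 22 general endothelial genes, none of 22 was past 2-fold for genotype with the normal diet, beside 5.36% of all genes, and 4 of 21 were higher and 1 lower with the western diet, beside 6.56 and 5.63%. For diet, none of 21 was higher and 4 were lower in WT, with a median of -0.57, beside 7.14 and 8.45%. In LysM-DKO 1 of 22 was higher and 1 lower, with a median of 0.29, beside 7.26 and 8.47%, so the medians had opposite signs. The WT median turned to 0.43 without the members that held UMIs of other cells' genes. These shares of all genes for diet, 7.14% higher and 8.45% lower in WT and 7.26% higher and 8.47% lower in LysM-DKO, stand beside each diet count that follows. Emcn, which encodes the sialomucin endomucin, stood at 241, 220, 99.6 and 361 CPM, and Kdr at 138, 176, 78.3 and 36.3 CPM. The lowest Emcn level was in WT/ApoE-/- members and the lowest Kdr level in LysM-DKO/ApoE-/- members. Of the flow genes, Thbd, the thrombomodulin gene, stood at 286, 459, 88.9 and 305 CPM, so the lowest level was in WT/ApoE-/- members. For diet, 1 of 12 flow genes was past 2-fold higher and 5 lower in WT, with a median of -0.66, while in LysM-DKO 1 of 14 was higher and 2 lower, with a median of 0.30. Arterial genes were higher in 3 and lower in 4 of 23 in WT, with a median of -0.31, and higher in 7 and lower in 1 of 25 in LysM-DKO, with a median of 0.41. Adhesion genes were higher in 1 and lower in 4 of 14 in WT, and higher in 1 and lower in 5 of 16 in LysM-DKO. Icam1 stood at 706, 571, 260 and 294 CPM, with both western diet libraries below both normal diet libraries. Interferon genes were lower in 2 and higher in none of 9 in WT, and lower in 4 and higher in 1 of 10 in LysM-DKO. Genes of the VEGF and angiopoietin list were lower in 3 and higher in none of 11 in WT, and lower in 4 and higher in 1 of 12 in LysM-DKO. Venous genes were lower in 2 and higher in 1 of 9 in WT, and lower in 2 and higher in none of 9 in LysM-DKO. BMP and TGF-beta genes were higher in 1 and lower in 1 of 16 in WT, and higher in 3 and lower in none of 16 in LysM-DKO.

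**Figure D5:**
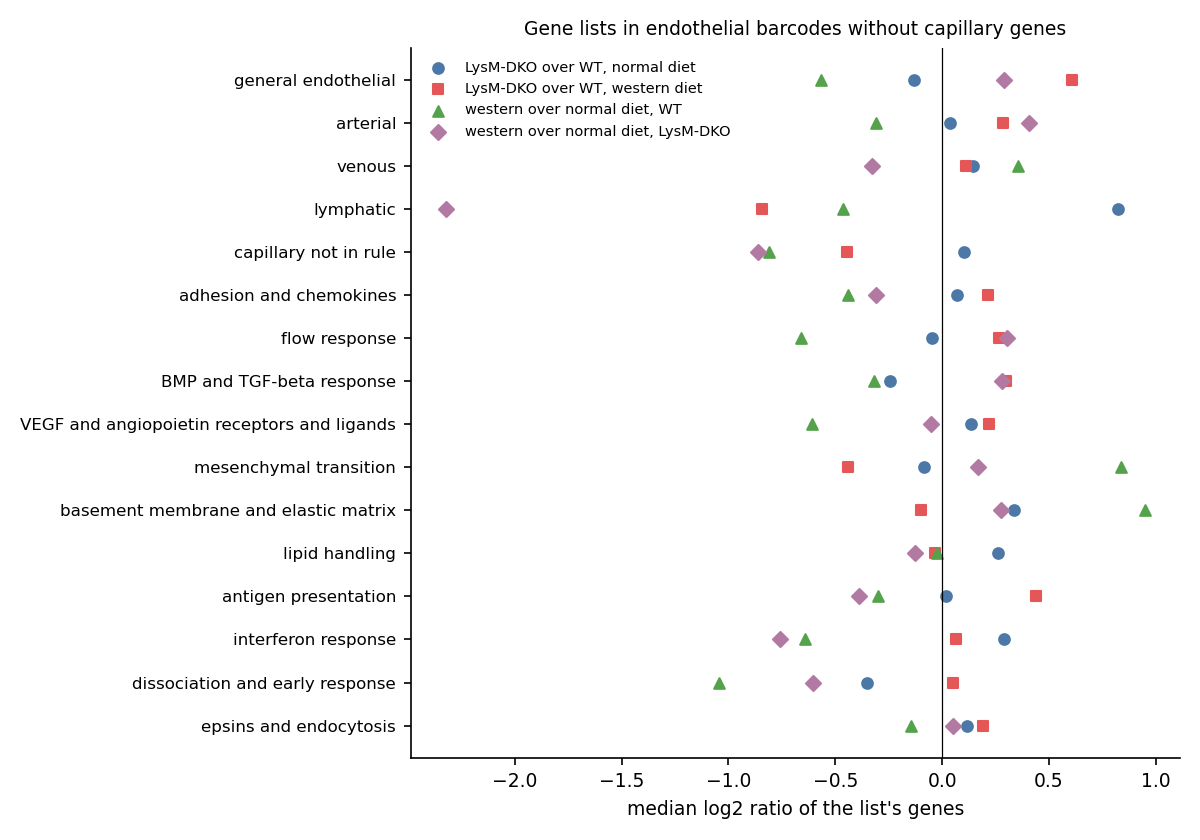
Median log2 ratio (horizontal) of the tested genes of 16 lists (vertical) in 4 contrasts of the members. The lymphatic list lies at -2.32 in western over normal diet in LysM-DKO and at 0.83 in LysM-DKO over WT on normal diet; the genotype and diet contrasts share libraries, so their symbols are not independent.

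The genotype contrasts share no library with each other. Of 4992 genes tested in both genotype contrasts, 2437 had the same sign on both diets, fewer than those that did not. Among those that met the naming rule, ranked by the smaller ratio, Il1b led the higher genes, but 1 barcode held 93.6 and 100% of its UMIs in the LysM-DKO libraries. Clic5, which encodes a chloride intracellular channel protein, stood at 108, 218, 35.6 and 201 CPM, with genotype ratios of 1.01 (0.66 to 1.39) and 2.44 (1.54 to 3.62). Fgfr3, a fibroblast growth factor receptor gene, stood at 35.9, 86.7, 7.11 and 67.1 CPM, with ratios of 1.25 (0.66 to 1.93) and 2.95 (1.23 to 6.36). The other higher genes were Fscn1, Pgf, Cul4b, Stard4, Tal1, Csnk1g1 and H2-DMb1, each from 3 to 73 UMIs a library.

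Among the lower genes, F8, which encodes coagulation factor VIII, stood at 60.3, 11.9, 132 and 36.3 CPM, with genotype ratios of -2.30 (-3.32 to -1.45) and -1.82 (-2.89 to -0.91). Galnt15, a glycosyltransferase gene, stood at 68.0, 11.9, 88.9 and 28.0 CPM. The naming rule required the same sign on both diets, so that these genes were lower in LysM-DKO on both describes their choice. Apod was lower in both contrasts, but all its UMIs in WT on normal diet came from 1 barcode and the ratio turned to 3.49 without it. Klhl13, Ehd3, Bace2, Pla2g4a, Pfkl and Iigp1 completed the list. Glycam1, which led it, is described with the other observations.

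The diet contrasts likewise share no library with each other, but each shares 1 with each genotype contrast. Each also sets ApoE-/- members read as male against members read as female. Between diets, 3927 of 6491 genes had the same sign in both genotypes. Genes named for diet were picked by the same rule, so the size and sign of their ratios describe the choice too. Mdk, the midkine gene, led the higher genes at 8.98, 8.50, 71.1 and 44.7 CPM. Col8a1, which encodes a short-chain collagen of vessel walls, stood at 85.9, 54.4, 334 and 556 CPM in members and 17.6, 26.1, 104 and 35.7 CPM in non-endothelial barcodes, with diet ratios of 1.96 (1.49 to 2.43) for WT and 3.35 (2.94 to 3.78) for LysM-DKO mice. Sox4, a transcription factor gene, stood at 52.6, 51.0, 217 and 386 CPM. Col5a2, Thbs2, Fkbp5, Tlr4, Armcx4, Ltbp2 and C4b were also higher.

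Apoe led the genes lower on western diet, where the labels give ApoE-/-. Nts, Ptn, Rgs16, Duox2, Gdf15 and Hmox1 followed with Rbp7, Ackr3 and Gm49774, and on normal diet each of these except Gm49774 was higher in lymphatic members than in the others in both libraries. Nts stood at 472, 780, 3.56 and 30.8 CPM. Hmox1, the heme oxygenase gene, stood at 603, 649, 74.7 and 25.2 CPM, and at 233, 385, 56.6 and 25.5 CPM in non-endothelial barcodes, so it was lower across the whole library. The 5 erythroid markers summed to 1998, 2326, 14.2 and 5.59 CPM in the members. The part of lymphatic members and of erythroid RNA in these genes was not tested.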

How the data were processed

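Per the labels' protocols, perfused aortas were digested with collagenases and liberase and loaded on a 10x Genomics 3' v3.1 kit. The deposited matrices hold whole UMI counts per gene and barcode, not normalized. Per the file headers, the authors made the counts with Cell Ranger 6.0.1 (normal diet) and 6.1.2 (western diet), while the submitters' processing notes name Cell Ranger 6.1.2, Seurat 4.1.0 and mm10 for all. The annotation release is not given in the sources used here. Gene positions come from GENCODE M21, matched by gene ID for 32158 of 32285 features.

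UMIs were summed over the members of a library and given as CPM. Log2 ratios add 0.5 UMIs to each sum; genes needed at least 20 UMIs over the 2 libraries compared, and a gene past 2-fold counts as called. Intervals are 95%: exact Poisson for levels, exact binomial for ratios and shares, Newcombe for differences of shares. A count of 0 allows 3 counts of the total. Groups of a single library allow no test. Only members against capillary-like barcodes were tested, by an exact two-sided sign-flip permutation over the 4 libraries. Lymphoid barcodes had at least 3 UMIs from at least 2 of Cd3d, Cd3e, Cd79a and Cd79b. Scrublet in scanpy 1.11.5 scored doublets, and the highest scores, 0.8% per 1000 barcodes, were marked. Scripts were tested on simulated data.

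Named by rule were the rule genes, Vwf, the lymphatic genes, examples of the lists (highest by level or ratio), and up to 10 genes per direction for genotype and for diet. These had the same sign in both contrasts and, in the higher library, a level at or above the other barcodes, ranked by the smaller ratio. Mitochondrial, ribosomal, hemoglobin, immunoglobulin and sex-linked genes, rule genes and markers of other cells were left out of the ranking. Other genes named (sex-linked genes, markers of other cells, genes of high endothelial venules) were chosen after their values were seen. Members and lists were chosen with earlier results of these data known. Of the list genes 2 have no feature under their older symbols. Alternatives were other UMI, mitochondrial, endothelial, capillary and low-count limits, thinning, doublets, lymphatic and mixed barcodes left out, median-ratio scaling and equal weight per barcode. Tools were matplotlib 3.10.9, statsmodels 0.14.6, scipy 1.17.1, numpy 2.4.6, pandas 2.3.3 and python 3.11.15.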

Additional observations from a re-analysis of the deposited data

Results flagged for a closer look

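The genotype ratios of the lymphatic list had opposite signs on the 2 diets. With LysM-DKO set over WT, the median log2 ratio was 0.83 for the normal diet, over 12 genes, and -0.84 for the western diet, over 7 genes. The difference was not tested. On western diet the list rests on 2 and 5 lymphatic members, and with at least 5 endothelial UMIs from at least 3 genes the western diet median was 5.00.

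Barcodes with more than 10% mitochondrial UMIs, which entered no comparison, could meet the endothelial rule too. It was met by 14, 62, 7 and 4 of them, or 0.327, 1.17, 0.388 and 0.227%, where a count of 0 would allow 0.0700, 0.0564, 0.166 and 0.170%. Their median mitochondrial share was 13.5, 12.6, 13.3 and 11.2%.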

How the results depend on the processing

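No paired analysis was possible because each group is 1 library and the replicate number is 1 in each. Leaving out a replicate was not possible for the same reason. The 4 differences of the share kept their sign under each alternative, with these sizes. LysM-DKO minus WT on normal diet was 0.464 points with at least 5 endothelial UMIs and 0.506 after thinning, and on western diet 0.0729 at 2000 UMIs or more, where its interval of -0.180 to 0.324 includes 0. Western minus normal diet in WT was -1.04 with at most 20% mitochondrial UMIs, -1.04 with at least 5 endothelial UMIs, -0.965 with 0 capillary UMIs and -0.989 after thinning; in LysM-DKO it was -2.09, -1.18, -1.72 and -1.14.

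The genes past 2-fold numbered 460 and 611 for genotype on normal and western diet, and 1031 and 1237 for diet in WT and LysM-DKO. Without mixed barcodes (3 or more UMIs of the 8 genes of other cells) they were 306, 101, 355 and 607, of which 25, 27, 98 and 152 were shared with the first counts. With at least 50 UMIs they were 125, 204, 431 and 496, and with equal weight 691 for genotype on normal diet. On normal diet the share of higher genes among those past 2-fold by genotype was 63.9%, and 52.7% with at least 5 endothelial UMIs or 51.3% without mixed barcodes; on western diet it was 53.8%, and 66.3% without them. The counts against capillary-like barcodes stayed within 1.5 times.

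Of the list medians under alternatives 688 stayed, 32 moved and 2 turned: lymphatic, genotype on western diet, to 5.00, and general endothelial, diet in WT, from -0.57 to 0.43 without mixed barcodes. Of the gene ratios 2131 stayed, 242 moved and 40 turned. Without mixed barcodes these were, for genotype on normal diet, Col5a2 -0.64, Gdf15 -0.0143, Rgs16 -0.80, Cytl1 0.0533 and Prox1 -0.46; on western diet, Iigp1 1.14, Gja4 -0.30, Edn1 -1.04, Bmp4 -0.92 and Eln 0.41; for diet in WT, Clic5 0.33, Glycam1 -3.99, Cytl1 0.78, Clu -0.20, Bmx 0.00216 and Mmrn1 1.16; for diet in LysM-DKO, Iigp1 1.06, Sox4 -0.22, Vcam1 -0.69, Mgp -0.26 and Mmrn1 0.0302. With at least 5 endothelial UMIs these were Col8a1 -0.32 and Ccl21a 5.14 (genotype, western diet), Ccl21a -4.94 (diet, WT), and Vcam1 -0.68 and Gja5 -0.0160 (diet, LysM-DKO). With 0 capillary UMIs these were Edn1 0.0426 and Col4a1 -0.0431 (genotype, normal diet), Mgp 0.13 and Ccl21a 1.54 (genotype, western diet), and Vcam1 -0.0669 and Ccl21a -3.06 (diet, WT). With equal weight Col5a2 was -0.0527 for genotype on normal diet, and without lymphatic barcodes Il1b was -5.17 for diet in LysM-DKO. Without the UMIs of the richest member, an alternative chosen after seeing the data, Apod was 3.49 (genotype, normal diet), Il1b -0.35, Eln 0.0830 and Ccl21a 1.75 (genotype, western diet), Ccl21a -3.22 (diet, WT) and Il1b -1.09 (diet, LysM-DKO). The cause was not tested.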

Other observations

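Glycam1, which encodes a mucin-like ligand of L-selectin made by high endothelial venules of lymph nodes, was high in 1 library. It gave 29, 1, 1063 and 0 UMIs in the members, seen in 3, 1, 17 and 0 of them. In WT/ApoE-/- on western diet its level was 3781 CPM in members, 2029 CPM in capillary-like barcodes and 5.59 CPM in non-endothelial barcodes, and the richest barcode held 25.4% of its UMIs. In WT on normal diet 1 barcode held 93.1%. Against 0 UMIs in LysM-DKO/ApoE-/- on western diet the level was at least 451-fold higher. Chst4 and Madcam1, other genes of high endothelial venules picked after these values were seen, gave at most 1 UMI in the members of any library. Without the members that held UMIs of smooth muscle, fibroblast or immune genes, the ratio of western over normal diet in WT turned from 6.64 to -3.99.

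Most Mki67 and Top2a UMIs were seen in the members of LysM-DKO on normal diet. Mki67, a gene of dividing cells, gave 3, 61, 0 and 11 UMIs in 3, 14, 0 and 2 members, and Top2a, the topoisomerase gene, 4, 50, 2 and 9 UMIs. In that library 34.4% of the Mki67 UMIs came from 1 barcode, and in LysM-DKO/ApoE-/- on western diet 90.9% did. Of the 12 cell cycle genes 7 were tested on normal diet and 6 were past 2-fold higher in LysM-DKO over WT, beside 3.42% of all genes, with a median log2 ratio of 2.90, or 2.52 with genes at 0 UMIs at their bound. In non-endothelial barcodes Mki67 stood at 9.98, 36.7, 26.3 and 7.80 CPM. The lymphocyte markers in members were also highest in that library, at 66.7, 222, 88.9 and 25.2 CPM summed over 10 genes, and their part in the cell cycle genes was not tested.

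Of the antigen presentation genes, 4 of 10 were past 2-fold higher in LysM-DKO over WT for the normal diet, beside 3.42% of all genes, and 3 of 9 for the western diet, beside 6.56%, and none lower. The list medians were 0.02 and 0.44, and for the normal diet only 5 of 10 genes were higher at all, beside 48.6% of all genes. H2-Aa gave 109, 293, 64.0 and 182 CPM and Cd74, the invariant chain gene, 245, 553, 153 and 369 CPM in members. In non-endothelial barcodes Cd74 stood at 828, 1563, 503 and 120 CPM. In LysM-DKO/ApoE-/- on western diet 1 barcode held 66.2% of the H2-Aa and 59.8% of the Cd74 UMIs.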
